A study of Mus musculus with 6 samples.

Results

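Heat shock proteins and their partners were followed in fully grown mouse oocytes, still arrested with an intact germinal vesicle, after growth in vitro or in vivo. The genes were chosen by symbol alone, from the Hsp70, Hsp110, Hsp90, small Hsp, chaperonin, Cct, Dnaja, Dnajb, Dnajc and Bag families, and 59 of the 10896 genes of the deposited table matched. Of 85 protein-coding RefSeq genes with such symbols, the other 26, among them Hspa1a, Hspa1b, Hspb1 and Bag3, were not analysed here. RNA was sequenced from 2 groups of 3 samples, each of 50 oocytes pooled from (C57BL x CBA) F1 females. For the in vitro group, follicles came from pools of 2 to 5 females aged 10 to 12 days. The follicles grew on membrane inserts, and the medium held fetal bovine serum, insulin, transferrin, selenium and FSH. Oocytes of the in vivo group were released from ovaries of females aged 7 to 11 weeks into M2 medium with dbcAMP, a compound that holds oocytes at this stage. Donor age and culture therefore cannot be told apart in any comparison made here.

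Chaperones bind unfolded protein and help it to reach or keep its fold. Hsp70 proteins do this in cycles of ATP use, in which J proteins deliver the client and stimulate ATP hydrolysis, and Hsp110 and Bag proteins promote the release of ADP. Hsp90 takes over clients such as kinases from Hsp70, while the ring complex TRiC, built of Cct subunits and Tcp1, folds actin and tubulin. A grown oocyte stores RNA and protein for the time after transcription stops, and Hsp70 and Hsp90 proteins are known to be part of this store. Not all 59 genes are cytosolic. From textbook knowledge, 9 encode mitochondrial proteins (Hspa9, Hspd1, Hspe1, Dnaja3, Dnajc4, Dnajc11, Dnajc15, Dnajc19 and Dnajc30), 10 encode proteins of the endoplasmic reticulum, and the remaining 40 were taken as cytosolic or nuclear.

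The deposited values are group means of normalised reads, so no spread between samples belongs to them. Levels of different genes are mostly compared per kb of the deposited gene length. Comparisons between genes that are given as means, such as those with Hspa8, Hspa2 and Pecam1, do not allow for length. A gene was called when the PPEE of the authors' deposited table, read as the posterior probability of equal expression, was below 0.05. It is not a p-value. In pools of oocytes, a lower mean from fewer oocytes with the RNA and one from less RNA per oocyte cannot be told apart. Reads of single libraries could be recovered from the means for genes with means up to 200, and the 3 libraries of each group are named A, B and C because the means do not tie them to sample numbers. Of the recovered fits, that without in vitro library A stood apart, with 1029 genes called by limma voom against 364 with all libraries. All 15 oocyte marker genes had rows, with summed means of 152271 in vitro and 184190 in vivo, and 2 of them (Bmp15 and Kit) were called lower in vitro. Of 15 granulosa and cumulus markers, 9 had rows, with summed means of 478 in vitro and 294 in vivo. Of the 9, 4 (Fshr, Hsd3b1, Inha and Inhba) were called higher in vitro, as were 6.75% of all rows. The others were not called. Cyp19a1 had a higher mean in vitro (157 against 110). Cyp11a1 (5.84 and 9.76), Nr5a2 (60.4 and 76.3), Kitl (39.4 and 42.5) and Gja1 (17.8 and 18.2) had lower means in vitro. None of these 9 was at 0 in either group. Of 4 genes listed as blood markers, Pecam1 alone had a row, with means of 561 in vitro and 849 in vivo. It was called lower in vitro, the direction of most chaperone calls. These means lay above those of all granulosa and cumulus markers (at most 157 and 110). The source of the Pecam1 reads was not tested, and the amount of blood RNA was not measured. None of 8 theca and stroma markers was analysed here. The part of RNA from other cells, if any, in the chaperone values was not tested.

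Among the 59 genes, 10 were called lower in oocytes grown in vitro and 4 were called higher. The genes called lower were Hspa8, Hspa2, Hspa4l, Hsph1, Hsp90ab1, Dnajb1, Dnaja3, Cct2, Cct4 and Dnajc14, and those called higher were Dnajc2, Dnajc3, Dnajc8 and Dnajc11. Lower calls made up 16.9% of the chaperone genes and 8.31% of the whole table, and higher calls 6.78% and 6.75%. Over the table, 15.1% of genes were called in either direction. Calls are more frequent among genes with high means, and 35 of the 59 averaged 200 or more over the groups. Of these 35, 9 were called lower (25.7%, with 12.7% of such rows in the table) and 4 higher (11.4%, with 8.93%). Among the 24 with lower means, Hspa2 alone was called lower (4.17%, with 5.25% of such rows), and no gene was called higher, with 5.22% of such rows. Direction without a call was balanced, since 29 of 59 means were lower in vitro (49.2%), as were 48.9% of all rows. Of the 35 with high means, 21 were lower (60%, with 53.2% of such rows). The median log2 change, in vitro over in vivo, was 0.01 for the chaperone genes and 0.02 for all genes, and the median fold between the groups was 1.24 and 1.29.

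**Figure D1:**
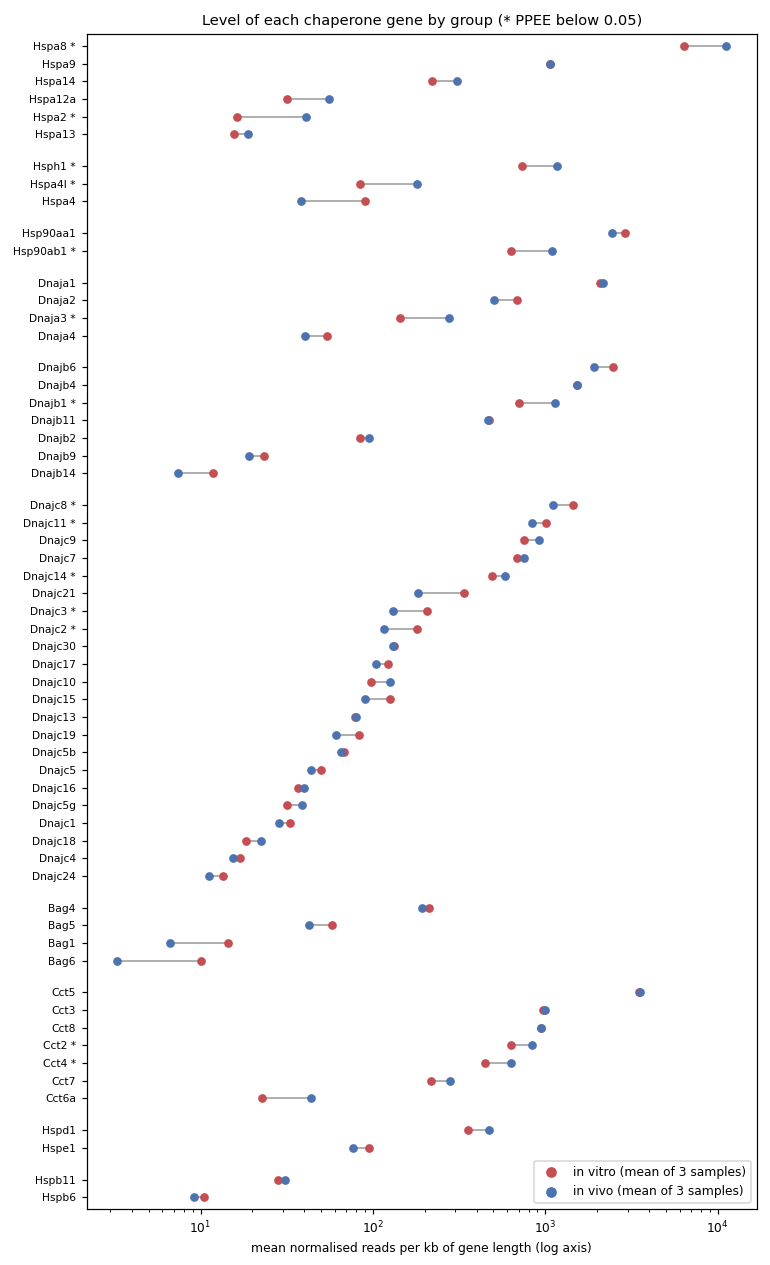
Mean normalised reads per kb of gene length, on a log axis, for the 59 chaperone genes by family, in vitro (red) and in vivo (blue), each point the mean of 3 samples with no error available, and a star where the PPEE was below 0.05. Hspa8 is the highest in both groups, at 6395 in vitro and 11207 in vivo, and most pairs of points lie close together.

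The levels spanned more than the changes did, as the plot of levels per kb by family shows. The median was 132 normalised reads per kb for the chaperone genes, and 47.1 for all genes with reads in both groups. The 10 with the highest level per kb over both groups were Hspa8, Cct5, Hsp90aa1, Dnajb6, Dnaja1, Dnajb4, Dnajc8, Hspa9, Cct3 and Hsph1. Of these 10, 2 were called lower (Hspa8 and Hsph1) and 1 higher (Dnajc8). All 10 averaged 200 or more over the groups, and 12.7% of all such rows were called lower and 8.93% higher. At the other end stood Bag6, with 10.0 normalised reads per kb in vitro and 3.28 in vivo. Neighbours in this order have no spread between samples, so their order is a description of the means.

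The Hsp70, Hsp110 and Hsp90 genes held 5 of the 10 lower calls and no higher call. These 5 were 45.5% of the 11 genes of these families, where 8.31% of all rows were called lower and 6.75% higher. Apart from Hspa2 and Hspa13, these genes averaged 200 or more over the groups. Among all rows with such means, 12.7% were called lower and 8.93% higher. Of the 11, 8 had a lower mean in vitro, with a median log2 change of -0.67. Hspa8, the constitutive Hsp70 of the cytosol, averaged 13456 normalised reads in vitro and 23580 in vivo, the 39th and the 16th highest mean of the table. It was 1.75-fold lower in vitro, with a log2 change of -0.81 and PPEE 6.11e-11 in the authors' deposited table. Hspa2, the Hsp70 known for its role in male germ cells, was far lower in level, with means of 41.4 in vitro and 104 in vivo. The 2.51-fold difference, a log2 change of -1.32, was the widest of the called chaperone genes and had PPEE 0.000113 in the authors' deposited table.

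The other 4 genes of the Hsp70 family were not called. Hspa9, the mitochondrial Hsp70 mortalin, stood at 3263 in vitro and 3251 in vivo. Hspa14, which works with Dnajc2 at the ribosome, had means of 393 in vitro and 552 in vivo, a 1.40-fold difference with PPEE 0.221 in the authors' deposited table. Hspa12a, a distant relative, had means of 182 and 320, and its PPEE of 0.0648 in the authors' deposited table lay just above the threshold. Hspa13, an Hsp70 of the endoplasmic reticulum, differed by 1.20-fold.

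Hsp110 proteins are relatives of Hsp70 that act as its nucleotide exchange factors. Of the 3 genes, 2 were called lower (8.31% of all rows and 12.7% of those with a mean of 200 or more). Hsph1 (Hsp105) had means of 2549 in vitro and 4048 in vivo, 1.59-fold lower, with a log2 change of -0.67 and PPEE 0.0196 in the authors' deposited table. Hspa4l (Apg-1) had means of 302 and 641, 2.12-fold lower, with a log2 change of -1.08 and PPEE 2.02e-09 in the authors' deposited table. Its close paralog Hspa4 (Apg-2) had a higher mean in vitro, 421 against 179, a 2.35-fold difference that was not called (PPEE 0.271 in the authors' deposited table). Per kb, Hspa4l stood at 0.934 times Hspa4 in vitro and at 4.66 times in vivo. The ratio of Hspa8 to Hsph1 per kb was 8.73 in vitro and 9.63 in vivo.

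Of the paired cytosolic Hsp90 genes, Hsp90ab1, the constitutive form, had means of 1592 in vitro and 2739 in vivo. It was 1.72-fold lower, with a log2 change of -0.78 and a PPEE listed as 0 in the authors' deposited table. Hsp90aa1, the form known as heat inducible, had means of 8269 and 6906 and was not called (1.20-fold higher, PPEE 0.987 in the authors' deposited table). Hsp90aa1 was thus the more abundant form in both groups, at 4.57 times Hsp90ab1 per kb in vitro and 2.22 times in vivo. The summed level of both was 3536 normalised reads per kb in vitro and 3515 in vivo.

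**Figure D2:**
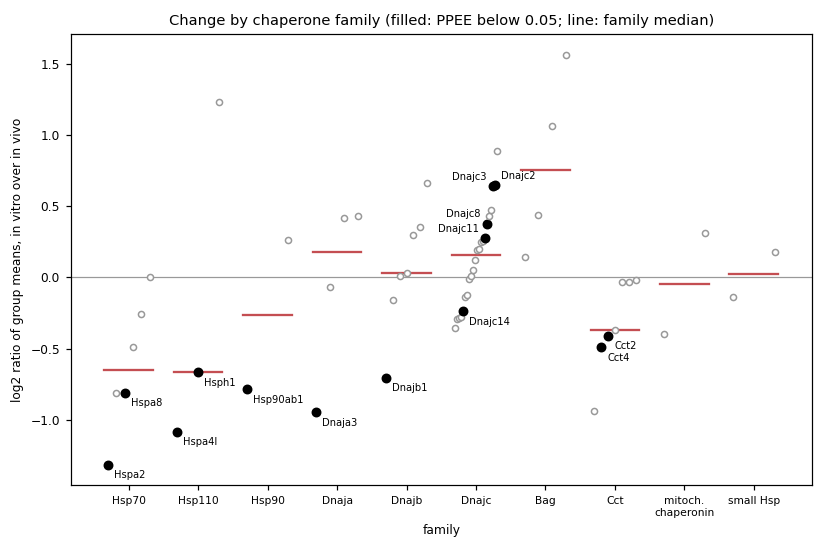
Log2 ratio of the group means, in vitro over in vivo, for each chaperone gene by family, filled where the PPEE was below 0.05, with a red line at the family median. Filled points of the Hsp70, Hsp110 and Hsp90 families lie below 0, and 4 of the 5 filled Dnajc points lie above it.

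J proteins, named for the J domain that binds Hsp70, made up 33 of the genes, with 4 called higher (12.1%, with 6.75% of all rows), 3 called lower (9.09%, with 8.31%) and a median log2 change of 0.12. The share called lower was thus near that of the table. All 4 higher calls were in the Dnajc class, the J proteins that share little beyond the J domain. Dnajc2 (zuotin), the J protein of the ribosome-associated complex, had means of 369 in vitro and 235 in vivo. It was 1.57-fold higher, with a log2 change of 0.65 and PPEE 0.0353 in the authors' deposited table. Dnajc3 (p58IPK), a co-chaperone of the endoplasmic reticulum induced by unfolded protein there, had means of 1063 and 682. It was 1.56-fold higher, with a log2 change of 0.64 and PPEE 0.00269 in the authors' deposited table.

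The remaining called Dnajc genes moved less. Dnajc8, a nuclear J protein found with splicing factors, had means of 2031 and 1562, 1.30-fold higher, with PPEE 4.29e-07 in the authors' deposited table. Dnajc11, a mitochondrial protein linked to cristae, had means of 2987 and 2461, 1.21-fold higher, with PPEE 0.0459 in the authors' deposited table. Dnajc14, a J protein of the endoplasmic reticulum membrane, was called lower, with means of 2081 and 2456, a 1.18-fold difference and PPEE 0.0126 in the authors' deposited table. Dnajc21, which acts in ribosome biogenesis, had means of 688 and 372. Its 1.85-fold difference was not called (PPEE 0.0799 in the authors' deposited table). Across the 22 Dnajc genes, log2 changes ran from -0.36 to 0.88, and 8 means were lower in vitro.

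The classical J proteins split by gene. Dnajb1 (Hsp40), a partner of Hspa8 in refolding, had means of 1601 in vitro and 2609 in vivo, 1.63-fold lower, with a log2 change of -0.70 and PPEE 4.95e-08 in the authors' deposited table. Dnaja1, another cytosolic partner of Hspa8, had means of 11532 and 12076 and was not called. Per kb, Dnaja1 stood at 2.95 times Dnajb1 in vitro and 1.89 times in vivo, and Hspa8 at 3.10 times Dnaja1 in vitro and 5.18 times in vivo. Deposited lengths were not whole numbers for 9 of the 59 genes, among them Dnaja1 (5583.13 bases). Ratios with Dnaja1 therefore depend on how that length was set. Dnaja3 (Tid1), the mitochondrial J protein that serves Hspa9, had means of 367 and 710, 1.93-fold lower, with a log2 change of -0.95 and PPEE 2.95e-05 in the authors' deposited table. Dnajb6, known for holding back the aggregation of polyglutamine proteins, had means of 4197 and 3276, and Dnajb4 had means of 3774 and 3748. Neither was called.

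Bag proteins bind Hsp70 through the Bag domain and release its client. None of the 4 was called, and all 4 means were higher in vitro. Bag4 had the highest level of the family, with means of 1017 in vitro and 920 in vivo. Bag6, which takes part in the quality control of membrane proteins, had means of 38.0 and 12.5, a 3.05-fold difference with PPEE 0.181 in the authors' deposited table. Bag1 had means of 19.8 and 9.14, a 2.17-fold difference with PPEE 0.422 in the authors' deposited table. Differences of at least 2-fold were seen in 5 of the 59 genes (11.1% of all rows). The 3 without a call were Bag6, Bag1 and Hspa4 (5.08%, with 6.59% of all rows).

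**Figure D3:**
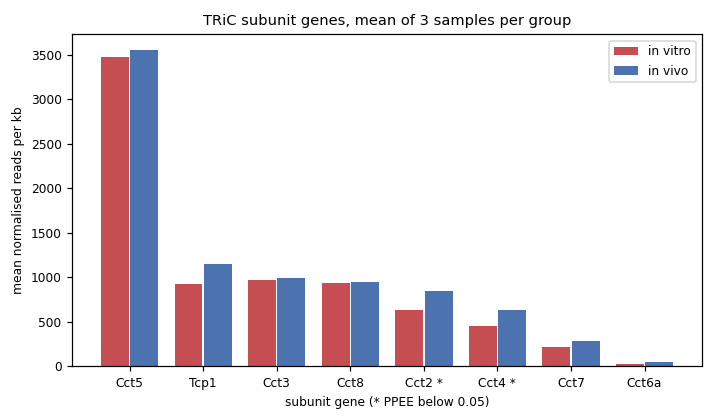
Mean normalised reads per kb for the 8 TRiC subunit genes, in vitro (red) and in vivo (blue), each bar the mean of 3 samples with no error available, and a star where the PPEE was below 0.05. Cct5 stands above the other subunits in both groups, and Cct6a is the lowest.

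All 7 Cct genes had a lower mean in vitro, as had 48.9% of all rows and 53.2% of those with high means. Of the 7, 2 were called lower (28.6%, with 8.31% of all rows and 12.7% of those with a mean of 200 or more). Cct6a alone of the 7 averaged less than 200. With Tcp1, the remaining subunit gene of the TRiC ring, all 8 subunit genes of the table had lower means. Cct2 had means of 1239 in vitro and 1645 in vivo, 1.33-fold lower, with a log2 change of -0.41 and PPEE 3.33e-16 in the authors' deposited table. Cct4 had means of 882 and 1238, 1.40-fold lower, with a log2 change of -0.49 and PPEE 3.14e-05 in the authors' deposited table. Tcp1 had means of 2174 and 2715 (PPEE 0.358 in the authors' deposited table). Cct5 (6146 and 6281), Cct3 (1891 and 1936) and Cct8 (2244 and 2269) differed by at most 1.02-fold, and Cct7 (532 and 688) by 1.29-fold. The subunits enter the ring in equal numbers, but their RNA levels were far apart. Cct5 stood at 3474 normalised reads per kb in vitro and 3551 in vivo, 153 and 81.1 times the level of Cct6a.

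Hspd1 and Hspe1, the mitochondrial chaperonin and its lid, were not called. Hspd1 had means of 837 in vitro and 1105 in vivo, and Hspe1 of 75.2 and 60.5. RefSeq names 5 pseudogenes after Hspd1 and 6 after Hspe1, so their reads may be split among copies and their values are uncertain. Cct3, Dnaja1, Dnajb6, Dnajc19 and Hspa9 have 1 such pseudogene each. Pseudogenes under other names were not counted, so split reads at the remaining genes, among them Hspa8, Hsp90ab1 and Cct6a, were not tested. Hspb11 and Hspb6, grouped as small Hsp by symbol alone, were low, at 28.1 and 10.4 normalised reads per kb in vitro and 31.0 and 9.16 in vivo.

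For 24 of the genes, all those with both means up to 200, reads of every library were recovered. In limma voom over 5803 recovered genes, 1 of the 24 was called lower and none higher at an adjusted p below 0.05 (2.84% and 3.43% of all recovered genes). The groups did not overlap for 2 of the 24 genes (8.33%, with 30.2% of all recovered genes). Both differed at least 2-fold (11.6% of all recovered genes). Hspa2 had 35.8, 36.3 and 52.1 normalised reads in libraries A, B and C grown in vitro, against 131.8, 104.5 and 75.7 in those grown in vivo. Every in vitro library was below every in vivo library, with means of 41.4 ± 9.27 and 104 ± 28.1 (SD, n = 3 each). The log2 change was -1.36 with a standard error of 0.296 and a Benjamini-Hochberg adjusted p of 0.0195 in limma voom. It was lower in 3 of 3 libraries, but the adjusted p ranged from 0.0107 to 0.0896 when single libraries were left out. The call was lost without in vitro library B (0.0511) or C (0.0705) and without in vivo library A (0.0896) or B (0.0737). In these 4 fits the log2 change was -1.29, -1.52, -1.15 and -1.35, in that order, and the genes called over the whole fit numbered 89, 29, 29 and 44 in place of 364.

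**Figure D4:**
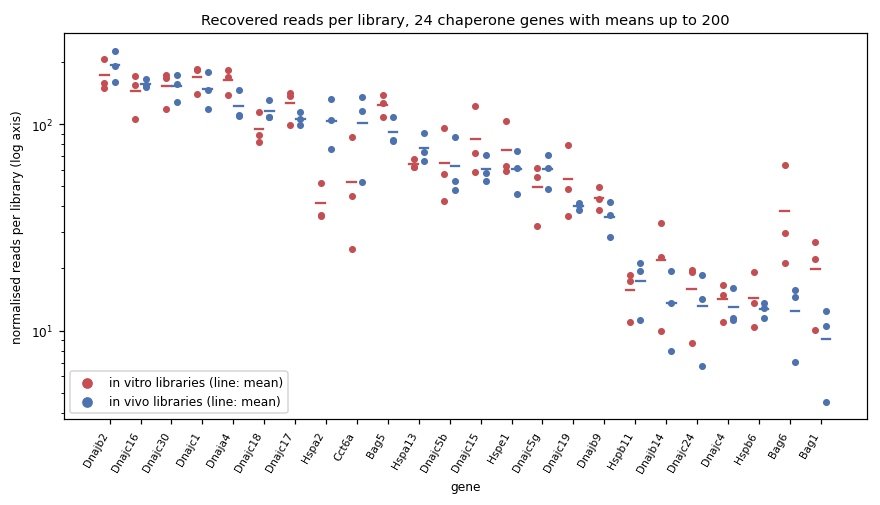
Normalised reads per library, on a log axis, for the 24 chaperone genes recovered in both groups, with 3 in vitro libraries (red) and 3 in vivo libraries (blue) per gene and a line at each mean. The points of Hspa2 and Bag6 do not overlap between the groups, and those of the other 22 genes do.

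Bag6 had 21.1, 63.2 and 29.8 normalised reads in vitro and 14.6, 7.09 and 15.8 in vivo, in library order. The in vitro libraries were all higher, with means of 38.0 ± 22.2 and 12.5 ± 4.72 (SD, n = 3 each), and library B stood well above the other in vitro libraries. The log2 change was 1.51 with a standard error of 0.501 and an adjusted p of 0.0752 in limma voom, so it was not called. Without in vitro library A, the lowest of the 3, it was called (adjusted p of 0.00809 in limma voom), and the adjusted p ranged up to 0.261 with another library left out. Cct6a had 45.0, 24.9 and 86.8 in vitro and 52.6, 134.6 and 115.2 in vivo, and the groups overlapped (adjusted p of 0.135 in limma voom). Bag1 rested on 4 to 26 reads per library, and its groups overlapped, with 10.1, 27.0 and 22.3 normalised reads in vitro and 10.5, 12.4 and 4.52 in vivo. The median coefficient of variation of the 24 genes was 24.9% in vitro and 19.0% in vivo, and that of all recovered genes 26.2% and 21.1%. The remaining 35 genes, among them Hspa8, Hsp90ab1, Hsph1 and Dnajb1, were not recovered in both groups, so their called differences carry no check on single libraries here.

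**Figure D5:**
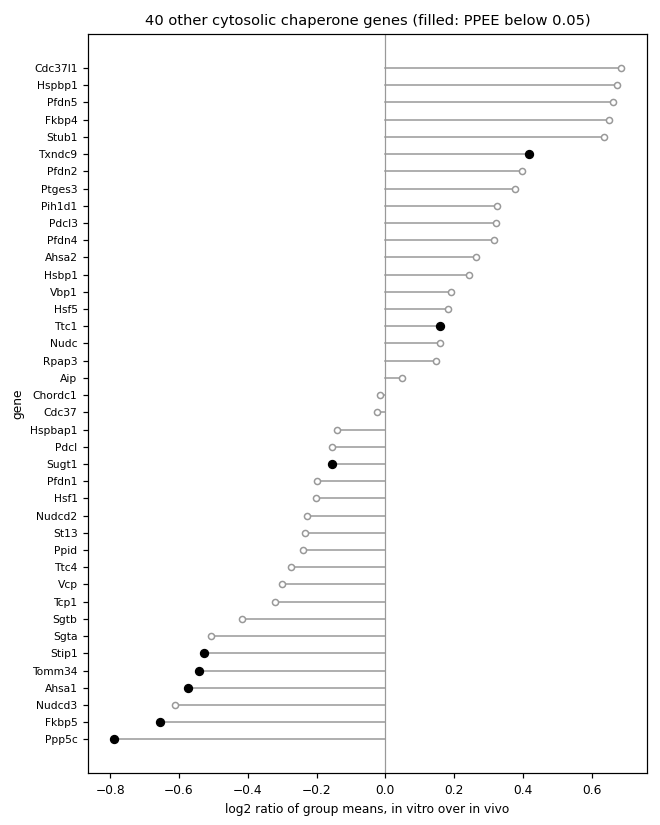
Log2 ratio of the group means, in vitro over in vivo, for the 40 other chaperone genes of the table, filled where the PPEE was below 0.05. The 6 genes called lower run from Sugt1 at -0.15 to Ppp5c at -0.79, and the 2 called higher are Ttc1 at 0.16 and Txndc9 at 0.42.

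A list of 53 further genes of cytosolic protein folding held 40 with rows in the table, of which 6 were called lower (15%, with 8.31% of all rows) and 2 higher (5%, with 6.75%). Means were lower in vitro for 21 of the 40, and the median log2 change was -0.02. Of the genes called lower, Stip1, Ahsa1, Fkbp5, Ppp5c and Sugt1 are partners of Hsp90. Stip1 (Hop), which links Hsp70 to Hsp90, had means of 2090 in vitro and 3014 in vivo, with a log2 change of -0.53 and PPEE 3.69e-12 in the authors' deposited table. Ahsa1 (Aha1), which stimulates the ATPase of Hsp90, had means of 484 and 722, with a log2 change of -0.57 and PPEE 8.42e-12 in the authors' deposited table. Fkbp5 (Fkbp51), an immunophilin bound to Hsp90, had means of 2685 and 4230, with a log2 change of -0.66 and PPEE 0.00160 in the authors' deposited table. Ppp5c, an Hsp90-bound phosphatase, had means of 54.9 and 95.4, with a log2 change of -0.79 and PPEE 0.0359 in the authors' deposited table. Its libraries held 79.0, 31.1 and 54.6 normalised reads in vitro and 93.8, 97.4 and 94.9 in vivo, without overlap, at an adjusted p of 0.0832 in limma voom. The groups did not overlap, in either direction, for 30.2% of all recovered genes.

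The other called genes of this list were spread over several roles. Tomm34, a co-chaperone in mitochondrial import, had means of 391 and 569, and Sugt1 had means of 2052 and 2285, both lower in vitro. Txndc9, a regulator of TRiC, had means of 3381 and 2531, and Ttc1, a tetratricopeptide repeat protein, of 2016 and 1804, both higher. Hsf1, the main heat shock transcription factor, had means of 244 and 281 and was not called (PPEE 0.918 in the authors' deposited table).

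Heat shock factors bind the heat shock element, inverted repeats of the unit NGAAN. RefSeq promoter windows of build GRCm38.p6, from 250 bases before to 50 after the start, were at hand for 46 of the 59 genes, in 63 windows. A run of 3 units, GAANNTTC followed by NNGAA or its reverse complement TTCNNGAA followed by NNTTC, was present for 4 of these 46 (8.70%) and for 0.662% of 27025 genes with windows. The 4 were Hspd1, Hspe1, Dnajb6 and Hsph1. The shorter GAANNTTC, which the longer runs also hold, was present for 19.6% of the 46 and 9.04% of all, and TTCNNGAA for 17.4% and 9.60%. The windows of 9 called genes were at hand, and Hsph1 was the 1 of these with a run of 3 units. The 3 others with such a run, Hspd1, Hspe1 and Dnajb6, were not called. Hspa8, Hsp90aa1 and Hsp90ab1 were among the 13 genes not analysed here. A match describes the letters of these windows and says nothing of binding.

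The sequences that follow are written 5′ to 3′ and show the matches, in capitals, beside windows of 2 genes called lower that hold none. Hspe1 and Hspd1 lie head to head on chromosome 1 and share 1 stretch of overlapping runs, at chr1:55088053-55088082, given on the plus strand for Hspe1 and on the minus strand for Hspd1. The stretch of Hsph1, on the minus strand at chr5:149636282-149636306, lies after the start, and its capitals begin at base 37 or 16, counted from 1 at each of its alternative starts. The 250 bases before the start are given for Dnajb6 (chr5:29735648-29735897, plus strand), Dnajb1 (chr8:83607925-83608174, plus strand) and Hspa2 (chr12:76404120-76404369, plus strand). In Dnajb6 the capitals begin 46 bases before this start.
Hspe1: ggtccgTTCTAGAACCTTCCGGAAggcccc
Hspd1: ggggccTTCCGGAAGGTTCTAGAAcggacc
Hsph1: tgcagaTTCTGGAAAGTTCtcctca
Dnajb6: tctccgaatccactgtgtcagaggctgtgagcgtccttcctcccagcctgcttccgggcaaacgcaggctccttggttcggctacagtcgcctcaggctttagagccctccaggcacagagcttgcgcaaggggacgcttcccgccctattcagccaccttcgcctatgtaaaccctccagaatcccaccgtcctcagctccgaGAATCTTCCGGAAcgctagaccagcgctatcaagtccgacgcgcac
Dnajb1: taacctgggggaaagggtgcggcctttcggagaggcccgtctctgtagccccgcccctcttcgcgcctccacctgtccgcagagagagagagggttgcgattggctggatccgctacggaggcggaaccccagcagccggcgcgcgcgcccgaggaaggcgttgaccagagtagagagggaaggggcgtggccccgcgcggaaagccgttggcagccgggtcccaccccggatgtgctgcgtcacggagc
Hspa2: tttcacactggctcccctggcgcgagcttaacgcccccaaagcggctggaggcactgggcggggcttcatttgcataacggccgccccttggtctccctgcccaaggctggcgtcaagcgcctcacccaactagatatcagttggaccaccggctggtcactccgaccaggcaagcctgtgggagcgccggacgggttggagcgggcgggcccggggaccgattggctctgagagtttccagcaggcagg

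A stricter PPEE or a minimum fold removed calls in both directions. With a PPEE below 0.01 in the authors' deposited table, 2 genes were called higher (Dnajc3 and Dnajc8) and 8 lower, with 4.78% and 6.53% of all rows. With at least a 1.5-fold difference beside a PPEE below 0.05, 2 were called higher (Dnajc2 and Dnajc3) and 7 lower, with 4.42% and 5.69% of all rows. Among the 40 cytosolic or nuclear genes, 2 were called higher (Dnajc2 and Dnajc8; 5%, with 6.75% of all rows) and 8 lower (20%, with 8.31%).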

How the data were processed

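RNA of 6 samples, 3 grown in vitro and 3 in vivo, was made into amplified cDNA with a low-input kit, per the labels' protocols. BWA and build mm9 are named in the submitters' processing notes, and the counting and normalisation are not given in the sources used here. The deposited table holds a signal per gene and group, the authors' mean of normalised reads, whose scale factors are not stated. It also holds the authors' log2 ratio with the in vivo group on top, turned here to in vitro over in vivo, which follows from the means after 0.599 is added to each. The tool behind the deposited PPEE is not named, and calls rest on reading it as the posterior probability of equal expression. It replaces the planned tests on samples, which group means do not allow. Folds are ratios of means.

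Whole reads per library were solved from means up to 200, with 1 step per library. Of these means, 95.1% in vitro and 95.4% in vivo had 1 solution, and none had more. Of values shifted so that they should have none, 1.03% and 4.24% were solved (means from 100 to 200). Reads in solved genes ranged from 288702 to 431632 per library. Tested on simulated data, the step search was right 4 of 4 times. The fit used limma 3.58.1 (voom) in R 4.3.3 with Benjamini-Hochberg adjustment over 5803 genes. On simulated data of that size it recovered 25% of genes changed 2-fold and 92% of those changed 4-fold, with 4.10% of calls false. Python 3.11.15 was used elsewhere. Whether samples came from separate cultures or animals is not stated, so these p-values measure the spread between samples, which may be technical.

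Genes named are those called, the 10 highest per kb, those whose recovered libraries did not overlap at 2-fold or more, those at least 2-fold and not called, the highest of each family, and the called genes of the further list; others named beside them, such as Dnajc21, Hspa12a, Cct6a and Hsf1, were chosen after their values were seen. The genes and lists were chosen with earlier results of these data known. Alternatives were another PPEE threshold, a fold minimum, the organelle genes left out, centring, a minimum mean, other limma settings and single libraries left out. The planned protein sequence features were not analysed here.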

Additional observations from a re-analysis of the deposited data

How the results depend on the processing

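No paired analysis was possible because the columns of group means carry no replicate numbers. Of the counts of calls, that of genes called higher fell from 4 to 2 with a PPEE below 0.01. It was also 2 with a 1.5-fold minimum and 2 without the mitochondrial and endoplasmic reticulum genes. The count called lower fell from 10 to 8, 7 and 8 under these settings, in that order. In recovered reads, limma trend on log2(normalised reads + 1) called 1 gene higher (Bag6, adjusted p of 0.0472) where limma voom called 0. Leaving out single libraries gave 0 to 1 genes called higher and 0 to 1 called lower. Without in vitro library A, Bag6 was called (adjusted p of 0.00809), and its adjusted p ranged from 0.00809 to 0.261 over the libraries left out. The cause of these changes was not tested. Over all recovered genes, limma voom called 364 with every library and 29 to 1029 with 1 left out. Of the 14 called genes, 10 had a PPEE below 0.01 and 9 differed at least 1.5-fold. Other offsets, centring and the minimum mean leave the authors' PPEE as it is and so do not test these calls. In recovered reads, the log2 changes of Hspa2, Bag6 and Cct6a kept their direction with any 1 library left out. Depth limits the low genes most: Bag1 rested on as few as 4 reads in a library. The genes above a mean of 200 have no values per library, so the weight of single libraries in their calls was not tested.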
